A study of Mus musculus with 76 samples.

Results

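The genes described here encode the proteasome, the protease complex that degrades ubiquitin-tagged proteins, with its assembly factors and regulators. They were chosen by name: every protein-coding gene whose symbol begins with Psma, Psmb, Psmc, Psmd, Psme, Psmf or Psmg followed by a digit. Of the 14823 genes in the count table, 48 matched, and 47 of them passed the filter on low counts, the exception being Psma8. The annotation holds 50 such genes, of which Psmb11 and Psme2b were not analysed here. RNA was sequenced from dorsal forebrain, where the cortex forms, of C57BL/6J mice at embryonic day 16. The parents had received α-cypermethrin, a pyrethroid insecticide, or its vehicle over 28 days with breaks, and were paired directly afterwards. Embryos had an exposed father at a dose labelled 0.3 (Paternal_0.3Cyp, n = 12) or 10 (Paternal_10Cyp, n = 10), with a vehicle-treated mother. An exposed mother with a vehicle-treated father gave Maternal_0.3Cyp (n = 12) and Maternal_10Cyp (n = 8), and pairs in which both parents received the same dose gave Both_0.3Cyp (n = 12) and Both_10Cyp (n = 10). Ctrl (n = 12) had vehicle-treated parents on both sides. The labels give no unit for the dose and no litter, so littermates may be counted as separate replicates, and p-values measure only the spread between these libraries. Each group holds libraries of batch 1 and batch 2, as the labels call them, and embryos of both sexes.

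The 20S core of the proteasome is a barrel of alpha and beta rings. The alpha subunits gate its entry, and within the beta rings Psmb5, Psmb6 and Psmb7 carry the proteolytic sites. The 19S cap binds ubiquitinated substrates, removes their ubiquitin and unfolds them with a ring of ATPases, while dedicated chaperones assemble both particles. Under interferon, the catalytic beta subunits are replaced by Psmb8, Psmb9 and Psmb10, which form the immunoproteasome, and other caps (Psme1 with Psme2, Psme3, Psme4) can take the place of the 19S cap. In mammalian cells the factor Nfe2l1 raises the transcription of the subunit genes together when the proteasome is inhibited. In neurons the proteasome is known for its part in axon growth, synapse turnover and removal of misfolded protein.

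Library totals ran from 17.7 to 41.4 M estimated counts with a median of 19.2 M, so that a gene of 1 CPM (counts scaled to a library of 1 M after TMM normalisation) had about 19 counts. Depth differed by group: Both_10Cyp libraries had 21.2 to 34.0 M and Ctrl libraries 17.9 to 19.9 M, without overlap. Depth and exposure therefore cannot be told apart in that comparison, though a fit on thinned counts is given in the closing section. Paternal_10Cyp replicates 7 to 10 had 24.6 to 41.4 M. One library stood apart in the proteasome genes: in Paternal_0.3Cyp replicate 8 the median log2 ratio to the Ctrl mean over the 31 tested genes of the 20S core and 19S cap was 0.89, where the other 75 libraries lay between -0.16 and 0.42. In that library all genes of short transcripts (up to 1200 bases) had a median log2 ratio of 0.89 too, and genes of long transcripts (over 2000 bases) had -0.19. Intermediate progenitor markers also moved with the exposed groups: of 8, edgeR called 8 higher in Paternal_0.3Cyp, Maternal_0.3Cyp and Maternal_10Cyp, 7 in Both_0.3Cyp, 5 in Paternal_10Cyp and 2 in Both_10Cyp. Their summed level was 335 to 1195 CPM in Paternal_0.3Cyp, 536 to 734 in Maternal_0.3Cyp, 589 to 726 in Both_0.3Cyp, 434 to 769 in Paternal_10Cyp, 673 to 848 in Maternal_10Cyp and 466.5 to 1029.6 in Both_10Cyp, against 302 to 764 in Ctrl. Of 12 cortical neuron markers, 5 were called lower in Paternal_0.3Cyp, 2 each in Maternal_0.3Cyp, Both_0.3Cyp and Paternal_10Cyp and 1 in Both_10Cyp, and in Maternal_10Cyp 4 were lower and 2 higher. Their summed level was 8668 to 11228 CPM in Paternal_0.3Cyp, 9608 to 11169.6 in Maternal_0.3Cyp, 9726 to 11324 in Both_0.3Cyp, 9721 to 11327 in Paternal_10Cyp, 9859.96 to 10756 in Maternal_10Cyp and 9310.2 to 11371 in Both_10Cyp, against 10486 to 12355 in Ctrl. Embryonic globin was high in Paternal_0.3Cyp replicates 3 and 4 and Both_10Cyp replicates 7 and 8, and diencephalon markers in Paternal_0.3Cyp replicates 4, 6 and 9. Of 12 radial glia markers, 5 were called higher and 2 lower in Paternal_0.3Cyp, 4 and 1 in Maternal_0.3Cyp, 4 and 3 in Both_0.3Cyp, 2 and 1 in Paternal_10Cyp, 6 and 3 in Maternal_10Cyp and 0 and 1 in Both_10Cyp, with summed levels of 1839 to 2627 CPM in Paternal_0.3Cyp, 1969.8 to 2398 in Maternal_0.3Cyp, 1927 to 2215 in Both_0.3Cyp, 1905 to 2244 in Paternal_10Cyp, 1979 to 2344 in Maternal_10Cyp and 1824 to 2379 in Both_10Cyp, against 1826 to 2168 in Ctrl. Of 6 genes of adult red cells, 5 were called higher in Paternal_0.3Cyp, 2 in Maternal_0.3Cyp, 2 in Both_0.3Cyp, 3 in Paternal_10Cyp and 0 in Maternal_10Cyp and Both_10Cyp, and none lower. Their summed level was 1538 to 3749 CPM in Paternal_0.3Cyp, 1345 to 2113 in Maternal_0.3Cyp, 1475 to 2279.5 in Both_0.3Cyp, 1506 to 2511 in Paternal_10Cyp, 1442 to 2216 in Maternal_10Cyp and 1306 to 2473 in Both_10Cyp, against 1364 to 1972 in Ctrl. All 12 radial glia, 8 intermediate progenitor and 12 cortical neuron markers had counts in every library, and none of the markers in the table of microglia, endothelium, choroid plexus, diencephalon or red cells was at 0 in all libraries. Beside the marker calls above, edgeR called 15.4% of all genes higher and 12.2% lower in Paternal_0.3Cyp, and 10.9% and 12.8% in Maternal_0.3Cyp. The shares were 10.5% and 11.8% in Both_0.3Cyp, 10.7% and 10.8% in Paternal_10Cyp, 20.4% and 20.4% in Maternal_10Cyp and 2.34% and 1.58% in Both_10Cyp. The part of these markers in the proteasome results was not tested. In bulk tissue, fewer cells of a type and less RNA per cell cannot be told apart.

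Per length of transcript, the constitutive beta subunits had the highest median of the role classes, though single genes of the classes interleaved. Psmb6 led with 158, 208 and 395 CPM per kb (lowest, median and highest of the 76 libraries; length of the principal transcript), followed by the alpha subunit Psma7 with a median of 183 and by Psmb4 with 175. Medians by class were 161 CPM per kb for the 7 constitutive beta genes, 91.2 for the 6 ATPases of the cap, 88.0 for the 8 alpha genes and 81.8 for the 11 non-ATPase subunits of the cap. The alpha class includes Psma8, while the beta class leaves out the inducible subunits. Without Psma8, the middle of the 7 alpha genes is Psma4 with 99.9, so the order of alpha genes and ATPases depends on that choice. The assembly chaperones were lower, at 11.6 to 30.0 CPM per kb. At the bottom were the inducible beta subunit genes Psmb10 (9.02), Psmb8 (0.325) and Psmb9 (0.194) and the testis-type alpha gene Psma8 (0.0683), the last with at most 14 counts in a library and none in 4 libraries. The libraries of most neighbours in this order overlapped.

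**Figure D1:**
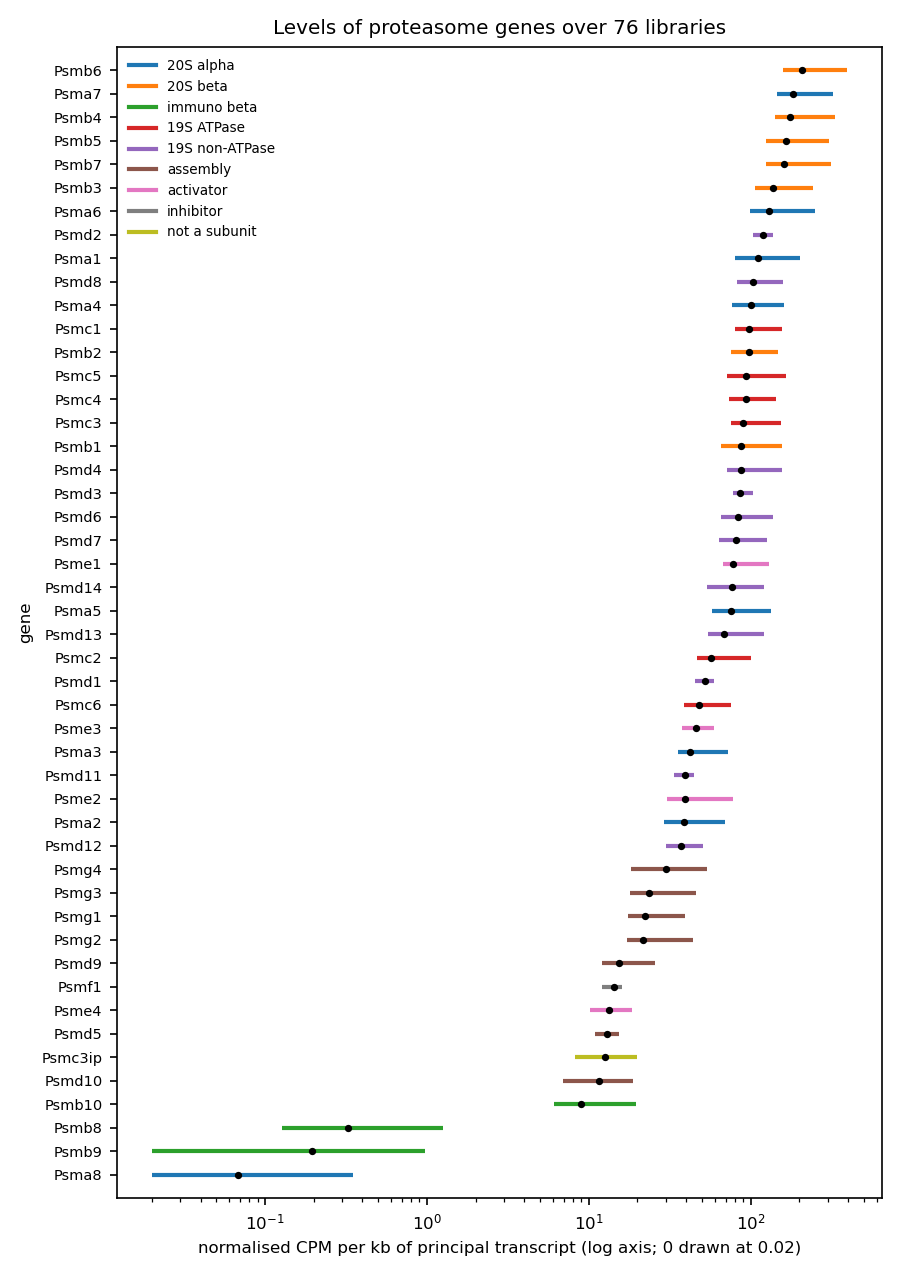
Normalised CPM per kb of principal transcript for the 48 proteasome genes (log axis), lines from the lowest to the highest of 76 libraries, black points at the median, colours by role. Constitutive subunits lie between 37.2 and 208 CPM per kb at the median, assembly chaperones at 11.6 to 30.0 and Psmb8, Psmb9 and Psma8 at 0.0683 to 0.325.

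The median proteasome gene was higher in embryos of exposed parents than in Ctrl in each comparison, by a small amount. Calls were made by edgeR's quasi-likelihood test at an adjusted p (Benjamini-Hochberg) under 0.05 over all 14339 genes tested. Of the 47 members, 32 were called higher in Paternal_0.3Cyp, where 15.4% of all genes were, and 24 in Maternal_0.3Cyp, where 10.9% were. The count was 24 in Both_0.3Cyp against 10.5% of all genes, 29 in Paternal_10Cyp against 10.7%, 38 in Maternal_10Cyp against 20.4% and 1 in Both_10Cyp against 2.34%. No member was called lower; 1, Psmb9 in Paternal_10Cyp, had an unadjusted p under 0.05 in that direction. Median log2 fold changes over the members were 0.18 in Paternal_0.3Cyp, 0.15 in Maternal_0.3Cyp, 0.15 in Both_0.3Cyp, 0.18 in Paternal_10Cyp, 0.25 in Maternal_10Cyp and 0.13 in Both_10Cyp, while the medians over all genes lay between -0.01 and 0.01. In the joint test of the 6 exposed groups 28 members were called, beside 21.7% of all genes. The 6 comparisons share the 12 Ctrl libraries, so their likeness is not independent evidence. DESeq2 called 32, 24, 25, 30, 38 and 1 members in the 6 comparisons, in the order above. With the log2 ratio of embryonic to adult globin counts as a covariate the counts fell to 1 in Paternal_0.3Cyp and 0 in Maternal_0.3Cyp and Both_0.3Cyp, and to 1 in the joint test. That ratio itself differed by group, with a median of -12.8 in Ctrl and -11.4 to -10.3 in exposed groups and overlapping ranges. It rests on few counts, as summed embryonic globin had a median of 0.18 CPM in Ctrl. In a fit of Paternal_0.3Cyp and Ctrl alone the count was 0. By number of comparisons, 1 member was called in 6, 16 in 5, 7 in 4, 7 in 3, 5 in 2, 3 in 1 and 8 in none.

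Counts depended on single libraries: the count for Paternal_0.3Cyp was 14 without its replicate 8, with a median of 0.10. Of the members described in full below, the calls there of Psma5 (log2 fold change 0.06, adjusted p = 0.378), Psmc3ip (log2 fold change 0.18, adjusted p = 0.0716), Psmc6 (log2 fold change 0.06, adjusted p = 0.307) and Psmd7 (log2 fold change 0.10, adjusted p = 0.0731) were lost without it, while Psma1 (log2 fold change 0.15, adjusted p = 0.0259), Psma4 (log2 fold change 0.13, adjusted p = 0.0201), Psmb5 (log2 fold change 0.16, adjusted p = 0.0188), Psmc5 (log2 fold change 0.17, adjusted p = 0.0145), Psme2 (log2 fold change 0.16, adjusted p = 0.0287) and Psmg4 (log2 fold change 0.24, adjusted p = 0.0122) were called. Maternal_0.3Cyp gave 13 without Ctrl replicate 7 and 15 without its own replicate 5. Both_0.3Cyp gave 14 without Ctrl replicate 7 and 15 without Ctrl replicate 3, Ctrl replicate 9, its own replicate 2 or its own replicate 7. Paternal_10Cyp gave 17 without its replicate 2 and 18 without its replicate 5. Both_10Cyp gave 2 without Ctrl replicate 5, 8 without Ctrl replicate 6, 6 without its own replicate 3 and 5 without its own replicate 10. The joint count was 13 without Ctrl replicate 7, 17 without Ctrl replicate 3 and 18 without Ctrl replicate 8 or 12. The shares of all genes called in these fits are not reported here, so the changes cannot be told from a general loss or gain of calls.

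**Figure D2:**
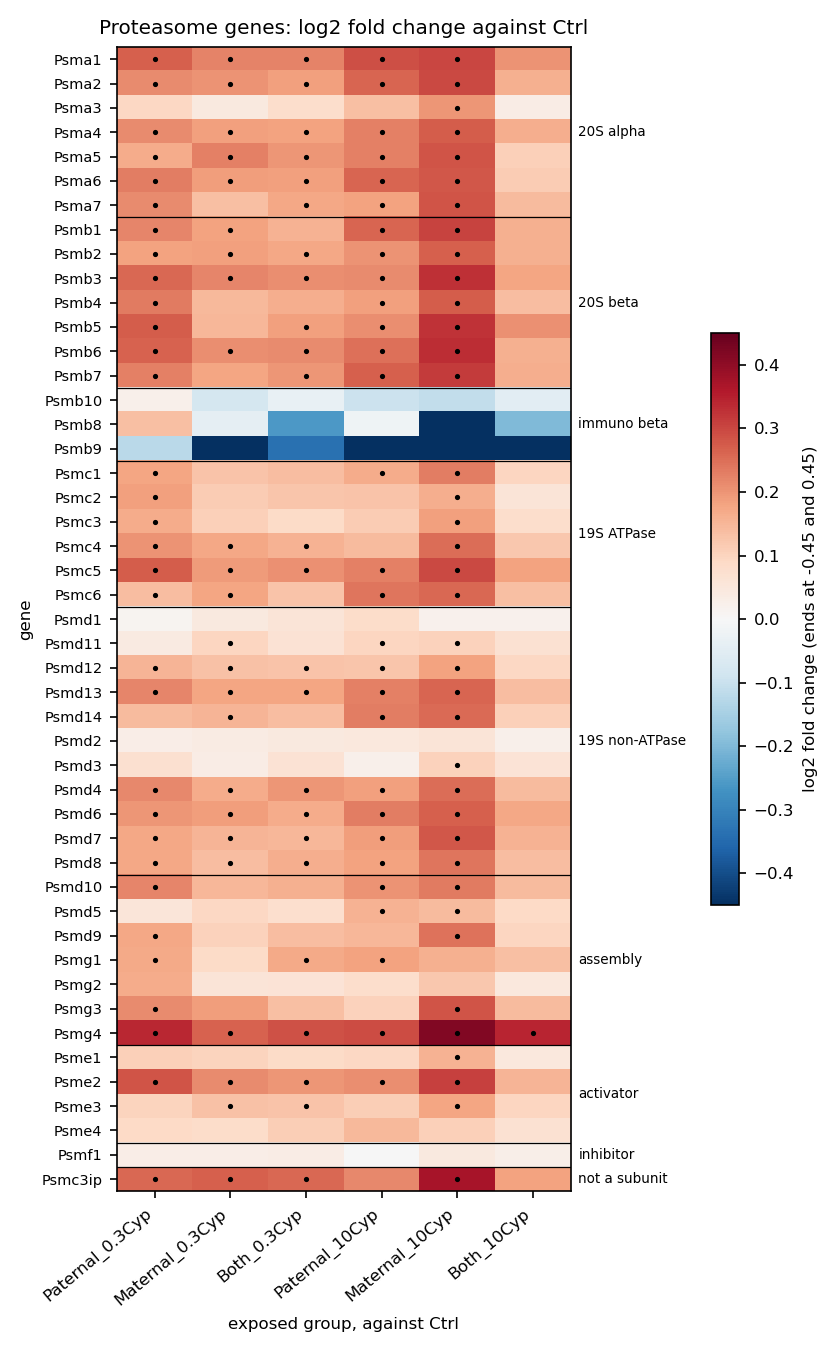
Log2 fold change against Ctrl (colour, ends at -0.45 and 0.45) of the 47 tested proteasome genes (rows, by role) in the 6 exposed groups (columns), black dots marking adjusted p under 0.05. Most dots lie in the 5 columns other than Both_10Cyp, where Psmg4 is the 1 dotted gene; Psmb8, Psmb9, Psmb10, Psmd1, Psmd2, Psme4, Psmf1 and Psmg2 have no dot.

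The genes of the 20S core were higher in all 6 exposed groups by fitted value. Of its 14 tested alpha and constitutive beta genes, 13 were called higher in Paternal_0.3Cyp, 9 in Maternal_0.3Cyp, 11 in Both_0.3Cyp, 13 in Paternal_10Cyp and 14 in Maternal_10Cyp. Of all genes, 15.4%, 10.9%, 10.5%, 10.7% and 20.4% were called higher in these groups, in that order. Among all genes of up to 1200 bases the shares were 46.0%, 22.5%, 23.8%, 29.1% and 51.5%. In Both_10Cyp edgeR called 0, beside 2.34% of all genes called higher, with 11 at an unadjusted p under 0.05. Over all 47 members, DESeq2 called 1 there and limma voom 11. Values below are the lowest, median and highest normalised CPM of a group, and errors after ± are standard errors of the log2 fold change. Psma4, an alpha ring subunit (chromosome 9, 54950790 to 54958030 on mm10), had 99.1, 114 and 188 CPM in Paternal_0.3Cyp, 107, 118 and 125 in Maternal_0.3Cyp and 109, 118 and 128 in Both_0.3Cyp. The dose 10 values of Psma4 were 106, 119.6 and 135 CPM in Paternal_10Cyp, 116, 125 and 140.1 in Maternal_10Cyp and 104, 113 and 125 in Both_10Cyp, against 89.9, 105 and 119 in Ctrl. The groups overlapped, and above the highest Ctrl library lay 5 of 12 libraries of Paternal_0.3Cyp, 6 of 12 libraries of Maternal_0.3Cyp, 5 of 12 libraries of Both_0.3Cyp, 5 of 10 libraries of Paternal_10Cyp, 7 of 8 libraries of Maternal_10Cyp and 4 of 10 of Both_10Cyp. Its log2 fold changes were 0.21 ± 0.05 (adjusted p = 0.00435) in Paternal_0.3Cyp, 0.19 ± 0.05 (adjusted p = 0.0121) in Maternal_0.3Cyp, 0.18 ± 0.05 (adjusted p = 0.014) in Both_0.3Cyp, 0.23 ± 0.06 (adjusted p = 0.00603) in Paternal_10Cyp, 0.27 ± 0.06 (adjusted p = 0.000384) in Maternal_10Cyp and 0.16 ± 0.06 (adjusted p = 0.0652) in Both_10Cyp. Psmb5, the subunit with the chymotrypsin-like site (chromosome 14, 54614119 to 54618022), had 127, 148 and 273 CPM in Paternal_0.3Cyp, 121, 143 and 159.9 in Maternal_0.3Cyp and 132, 150.5 and 159 in Both_0.3Cyp. For Psmb5 at dose 10, the values were 122, 153 and 177 CPM in Paternal_10Cyp, 151, 161 and 184 in Maternal_10Cyp and 135, 149.9 and 166 in Both_10Cyp, against 112, 131 and 151 in Ctrl. Libraries overlapped here too, and above the highest Ctrl library lay 5 of 12 libraries of Paternal_0.3Cyp, 3 of 12 libraries of Maternal_0.3Cyp, 5 of 12 libraries of Both_0.3Cyp, 5 of 10 libraries of Paternal_10Cyp, 7 of 8 libraries of Maternal_10Cyp and 4 of 10 of Both_10Cyp. Psmb5 had log2 fold changes of 0.27 ± 0.07 (adjusted p = 0.00393) in Paternal_0.3Cyp, 0.15 ± 0.07 (adjusted p = 0.0863) in Maternal_0.3Cyp, 0.18 ± 0.07 (adjusted p = 0.0399) in Both_0.3Cyp, 0.21 ± 0.07 (adjusted p = 0.0278) in Paternal_10Cyp, 0.32 ± 0.07 (adjusted p = 0.000576) in Maternal_10Cyp and 0.20 ± 0.07 (adjusted p = 0.0652) in Both_10Cyp. Its highest value, 273 CPM, belonged to Paternal_0.3Cyp replicate 8, and without that library its fold change there was 0.16 (adjusted p = 0.0188).

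Psma1, another alpha ring subunit, had 103, 129 and 243 CPM in Paternal_0.3Cyp, 117, 129.6 and 149 in Maternal_0.3Cyp and 118, 136 and 152 in Both_0.3Cyp. In the dose 10 groups Psma1 had 114, 139 and 162 CPM in Paternal_10Cyp, 135, 139 and 159 in Maternal_10Cyp and 106, 128 and 145 in Both_10Cyp, against 96.7, 112 and 139.8 in Ctrl. In Psma1, 12 of 12 libraries of Maternal_0.3Cyp and 8 of 8 of Maternal_10Cyp exceeded the Ctrl mean, and ranges overlapped. Its log2 fold changes were 0.27 ± 0.07 (adjusted p = 0.00501) in Paternal_0.3Cyp, 0.22 ± 0.07 (adjusted p = 0.0179) in Maternal_0.3Cyp, 0.22 ± 0.07 (adjusted p = 0.018) in Both_0.3Cyp, 0.29 ± 0.07 (adjusted p = 0.0066) in Paternal_10Cyp, 0.30 ± 0.08 (adjusted p = 0.00171) in Maternal_10Cyp and 0.20 ± 0.07 (adjusted p = 0.0743) in Both_10Cyp. Psma5, also of the alpha ring, had 74.2, 89.3 and 166 CPM in Paternal_0.3Cyp, 85.6, 96.4 and 110.4 in Maternal_0.3Cyp and 87.6, 96.7 and 108 in Both_0.3Cyp. Psma5 at dose 10 had 82.3, 98.6 and 112 CPM in Paternal_10Cyp, 96.6, 102 and 110.3 in Maternal_10Cyp and 76.9, 92.8 and 97.1 in Both_10Cyp, against 71.8, 84.9 and 105 in Ctrl. The Psma5 ranges of Both_10Cyp and Ctrl overlapped, with 0 of 10 libraries above the highest Ctrl library, and its log2 fold changes were 0.17 ± 0.07 in Paternal_0.3Cyp, 0.23 ± 0.07 in Maternal_0.3Cyp, 0.20 ± 0.07 in Both_0.3Cyp, 0.23 ± 0.07 in Paternal_10Cyp, 0.28 ± 0.07 in Maternal_10Cyp and 0.11 ± 0.07 in Both_10Cyp. Adjusted p for Psma5 was 0.00189 to 0.0488 in the other 5 groups and 0.303 in Both_10Cyp. Psma3 was the least changed core gene in this fit, with log2 fold changes of 0.03 to 0.20 and 1 call, in Maternal_10Cyp. That ranking did not hold with offsets for GC content and transcript length. There Psma3 had -0.01 to 0.13 and kept its call (adjusted p = 0.0431), while Psmb2 had -0.01 to 0.03 and 0 calls.

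Part of the 19S cap was called higher. Of its 17 ATPase and non-ATPase genes, 12 were called higher in Paternal_0.3Cyp, 11 in Maternal_0.3Cyp, 8 in Both_0.3Cyp, 11 in Paternal_10Cyp and 15 in Maternal_10Cyp, and edgeR called 0 in Both_10Cyp, with 9 at an unadjusted p under 0.05. Of all genes, 15.4%, 10.9%, 10.5%, 10.7%, 20.4% and 2.34% were called higher in these groups, in that order. Among all genes of 1201 to 2000 bases the shares were 27.2%, 17.5%, 17.6%, 17.7%, 36.2% and 2.63%. Psmc5, an ATPase of the ring that unfolds substrates (chromosome 11, 106256154 to 106263120), had 112, 119 and 218 CPM in Paternal_0.3Cyp, 112, 125 and 132 in Maternal_0.3Cyp and 113, 124 and 141 in Both_0.3Cyp. Dose 10 gave Psmc5 112, 126 and 146 CPM in Paternal_10Cyp, 125, 131 and 150.1 in Maternal_10Cyp and 109, 121 and 136 in Both_10Cyp, against 93.6, 111 and 124 in Ctrl. All 8 Maternal_10Cyp libraries lay above the highest Ctrl library, while the other groups overlapped with Ctrl. Its log2 fold changes were 0.27 ± 0.06 (adjusted p = 0.00305) in Paternal_0.3Cyp, 0.19 ± 0.06 (adjusted p = 0.0228) in Maternal_0.3Cyp, 0.20 ± 0.06 (adjusted p = 0.0165) in Both_0.3Cyp, 0.23 ± 0.07 (adjusted p = 0.0133) in Paternal_10Cyp, 0.30 ± 0.07 (adjusted p = 0.000756) in Maternal_10Cyp and 0.18 ± 0.07 (adjusted p = 0.0761) in Both_10Cyp. Psmc6, the ATPase of lowest p in the joint test, had 89.4, 104 and 168 CPM in Paternal_0.3Cyp, 97.96, 109 and 122 in Maternal_0.3Cyp and 92.96, 109 and 119 in Both_0.3Cyp. The dose 10 values of Psmc6 were 105, 116 and 126 CPM in Paternal_10Cyp, 111, 117 and 127 in Maternal_10Cyp and 90.99, 107 and 117 in Both_10Cyp, against 86.6, 99.7 and 111 in Ctrl. Above the highest Ctrl library in Psmc6 lay 3 of 12 libraries of Paternal_0.3Cyp, 4 of 12 libraries of Maternal_0.3Cyp, 3 of 12 libraries of Both_0.3Cyp, 6 of 10 libraries of Paternal_10Cyp, 7 of 8 libraries of Maternal_10Cyp and 3 of 10 of Both_10Cyp. The log2 fold changes of Psmc6 were 0.14 ± 0.05 in Paternal_0.3Cyp, 0.18 ± 0.05 in Maternal_0.3Cyp, 0.13 ± 0.05 in Both_0.3Cyp, 0.24 ± 0.06 in Paternal_10Cyp, 0.26 ± 0.06 in Maternal_10Cyp and 0.13 ± 0.06 in Both_10Cyp, with adjusted p under the threshold in 4 of the 6. Psmd7, the partner of the deubiquitinase subunit Psmd14 (chromosome 8, 107580381 to 107588464), had 109, 127 and 198 CPM in Paternal_0.3Cyp, 113, 131 and 138 in Maternal_0.3Cyp and 116, 129 and 139 in Both_0.3Cyp. For Psmd7 at dose 10, the values were 108, 137 and 150.2 CPM in Paternal_10Cyp, 134, 142 and 156 in Maternal_10Cyp and 111, 129 and 140.4 in Both_10Cyp, against 101, 116 and 137 in Ctrl. Its groups overlapped with Ctrl, and its log2 fold changes were 0.18 ± 0.05 (adjusted p = 0.0133) in Paternal_0.3Cyp, 0.15 ± 0.05 (adjusted p = 0.0327) in Maternal_0.3Cyp, 0.15 ± 0.05 (adjusted p = 0.0379) in Both_0.3Cyp, 0.19 ± 0.06 (adjusted p = 0.0166) in Paternal_10Cyp, 0.28 ± 0.06 (adjusted p = 0.000331) in Maternal_10Cyp and 0.16 ± 0.06 (adjusted p = 0.0757) in Both_10Cyp. Without replicate 8, Psmd7 in Paternal_0.3Cyp had 0.10 (adjusted p = 0.0731).

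Psmd1 and Psmd2, the large scaffold subunits of the cap, were called in no comparison, with log2 fold changes of 0.01 to 0.08 and 0.02 to 0.06. Psmd3 had 0.02 to 0.10 and 1 call, and Psmd11 0.04 to 0.10 and 3 calls. Psmd4, a ubiquitin receptor (0.14 to 0.25), Psmd6 (0.17 to 0.27), Psmd8 (0.14 to 0.24), Psmd12 (0.09 to 0.18) and Psmd13 (0.14 to 0.26) were each called in 5 comparisons, and Psmd14, the deubiquitinase, in 3 (0.11 to 0.26).

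The assembly chaperones varied, and Psmg4, which with Psmg3 helps to build the alpha ring, had log2 fold changes of 0.27 to 0.42. Psmg4 (chromosome 13, 34162964 to 34178173) had 14.00, 16.9 and 29.7 CPM in Paternal_0.3Cyp, 14.03, 16.2 and 18.6 in Maternal_0.3Cyp and 14.1, 17.1 and 19.9 in Both_0.3Cyp. In the dose 10 groups Psmg4 had 15.2, 16.6 and 18.6 CPM in Paternal_10Cyp, 14.7, 18.8 and 22.8 in Maternal_10Cyp and 15.9, 17.98 and 19.1 in Both_10Cyp, against 10.1, 13.8 and 17.5 in Ctrl. The ranges overlapped, but in each exposed group every library lay above the Ctrl mean, and above the highest Ctrl library lay 4 of 12 libraries of Paternal_0.3Cyp, 4 of 12 libraries of Maternal_0.3Cyp, 5 of 12 libraries of Both_0.3Cyp, 4 of 10 libraries of Paternal_10Cyp, 5 of 8 libraries of Maternal_10Cyp and 6 of 10 of Both_10Cyp. Its log2 fold changes were 0.34 ± 0.07 (adjusted p = 0.0025) in Paternal_0.3Cyp, 0.27 ± 0.07 (adjusted p = 0.00958) in Maternal_0.3Cyp, 0.29 ± 0.07 (adjusted p = 0.00786) in Both_0.3Cyp, 0.29 ± 0.08 (adjusted p = 0.00779) in Paternal_10Cyp, 0.42 ± 0.08 (adjusted p = 0.000146) in Maternal_10Cyp and 0.34 ± 0.08 (adjusted p = 0.0126) in Both_10Cyp, so that it was called in all 6 comparisons, the only member to be so. Psmg4 also has the shortest principal transcript of the members, 555 bases, and with offsets for GC content and length it was called in none of the 6, with log2 fold changes of 0.10 in each and adjusted p of 0.0822 to 0.165. Psmg3 was called in 2 comparisons (0.10 to 0.28), Psmg1 in 3 (0.09 to 0.18) and Psmg2 in none (0.05 to 0.17). Of the chaperones that build the ATPase ring, Psmd10 was called in 3 (0.14 to 0.23), Psmd9 in 2 (0.10 to 0.24) and Psmd5 in 2 (0.06 to 0.16).

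The immunoproteasome subunits showed no call. In all 6 comparisons edgeR called 0 of the 3, with 1 value, Psmb9 in Paternal_10Cyp, at an unadjusted p under 0.05, and DESeq2 and limma voom called 0 as well wherever they gave an adjusted p. Psmb10, the inducible counterpart of Psmb7, had 7.98, 11.9 and 25.6 CPM in Paternal_0.3Cyp, 10.3, 11.5 and 13.7 in Maternal_0.3Cyp and 9.15, 12.2 and 14.9 in Both_0.3Cyp. Psmb10 at dose 10 had 8.51, 11.8 and 14.9 CPM in Paternal_10Cyp, 10.04, 11.3 and 13.98 in Maternal_10Cyp and 9.15, 12.3 and 14.6 in Both_10Cyp, against 11.1, 12.4 and 14.96 in Ctrl. Most exposed libraries lay under the Ctrl mean: 3 of 12 were above it in Paternal_0.3Cyp, 2 of 12 in Maternal_0.3Cyp, 5 of 12 in Both_0.3Cyp, 2 of 10 in Paternal_10Cyp, 2 of 8 in Maternal_10Cyp and 5 of 10 in Both_10Cyp, and 4 of 12 in Ctrl. Psmb10 had log2 fold changes of 0.02 ± 0.10 (adjusted p = 0.888) in Paternal_0.3Cyp, -0.08 ± 0.10 (adjusted p = 0.563) in Maternal_0.3Cyp, -0.03 ± 0.10 (adjusted p = 0.829) in Both_0.3Cyp, -0.10 ± 0.10 (adjusted p = 0.516) in Paternal_10Cyp, -0.11 ± 0.11 (adjusted p = 0.431) in Maternal_10Cyp and -0.05 ± 0.10 (adjusted p = 0.777) in Both_10Cyp. With the GC and length offsets it was called lower in Maternal_10Cyp, at -0.27 (adjusted p = 0.0184). Psmb8, the counterpart of Psmb5, had 0.212, 0.529 and 2.03 CPM in Paternal_0.3Cyp, 0.208, 0.611 and 0.988 in Maternal_0.3Cyp and 0.221, 0.453 and 1.27 in Both_0.3Cyp. Dose 10 gave Psmb8 0.213, 0.610 and 0.912 CPM in Paternal_10Cyp, 0.266, 0.384 and 0.891 in Maternal_10Cyp and 0.349, 0.474 and 0.766 in Both_10Cyp, against 0.411, 0.603 and 1.18 in Ctrl. Psmb9, the counterpart of Psmb6, had 0, 0.318 and 0.879 CPM in Paternal_0.3Cyp, 0, 0.228 and 0.524 in Maternal_0.3Cyp and 0.0572, 0.213 and 1.32 in Both_0.3Cyp. The dose 10 values of Psmb9 were 0, 0.181 and 0.313 CPM in Paternal_10Cyp, 0.151, 0.239 and 0.651 in Maternal_10Cyp and 0.0475, 0.217 and 0.581 in Both_10Cyp, against 0.104, 0.370 and 0.783 in Ctrl. The ranges of both genes overlapped in every comparison, and both rest on few counts, with a median of 11 counts for Psmb8 and 5 for Psmb9 per library. Psmb8 had 0.14 ± 0.26 in Paternal_0.3Cyp, -0.04 ± 0.26 in Maternal_0.3Cyp, -0.26 ± 0.26 in Both_0.3Cyp, -0.02 ± 0.27 in Paternal_10Cyp, -0.46 ± 0.30 in Maternal_10Cyp and -0.20 ± 0.27 in Both_10Cyp. The log2 fold changes of Psmb9 were -0.12 ± 0.40 in Paternal_0.3Cyp, -0.83 ± 0.42 in Maternal_0.3Cyp, -0.34 ± 0.41 in Both_0.3Cyp, -0.98 ± 0.45 in Paternal_10Cyp, -0.45 ± 0.46 in Maternal_10Cyp and -0.54 ± 0.42 in Both_10Cyp. Psmb9 shares exonic sequence with Tap1 on the opposite strand, and since the strandedness of the libraries is not given in the sources used here, its few reads may belong to either gene. Per length, Psmb10 made up a median of 4.75 to 5.78% of the sum of Psmb10 and Psmb7 in the exposed groups and 6.15% in Ctrl. The share of Psmb8 in its pair was 0.134 to 0.235% in exposed groups and 0.236% in Ctrl.

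Promoter sequences were read from RefSeq (GRCm38.p6) for 40 of the 48 members, 43 promoters from 250 bases before to 50 after the start, to show the stretch before the start site for genes with and without calls. Shown are the 150 bases before the RefSeq start of Psmb5 (chr14:54617996-54618145, minus strand), Psmd6 (chr14:14120946-14121095, minus strand), Psmg4 (chr13:34162814-34162963, plus strand) and Psmb8 (chr17:34198045-34198194, plus strand). Gene bounds in GENCODE M21 differ for some. Psmb8 begins there at 34197721, so its stretch lies inside the gene. Those of Psmb5 and Psmd6 lie partly inside, as these genes begin at 54618022 and 14120984 on the minus strand. Psmb5 and Psmd6 are constitutive and called, Psmg4 was called in all 6 comparisons, and Psmb8 is inducible and not called. Capitals mark matches on either strand to TGACNNNGC, the core of the antioxidant and Nfe2l1 element, CCAAT, or CCGGAAG, the core of sites of ETS factors.
Psmb5: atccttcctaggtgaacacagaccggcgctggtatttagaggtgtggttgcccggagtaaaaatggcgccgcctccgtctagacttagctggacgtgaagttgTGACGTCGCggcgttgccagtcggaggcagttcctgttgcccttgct
Psmd6: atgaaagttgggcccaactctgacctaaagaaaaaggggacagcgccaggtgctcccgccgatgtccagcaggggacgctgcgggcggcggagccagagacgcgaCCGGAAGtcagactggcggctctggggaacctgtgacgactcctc
Psmg4: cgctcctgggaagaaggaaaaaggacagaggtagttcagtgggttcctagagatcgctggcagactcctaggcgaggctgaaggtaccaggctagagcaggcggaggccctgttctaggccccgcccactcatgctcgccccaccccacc
Psmb8: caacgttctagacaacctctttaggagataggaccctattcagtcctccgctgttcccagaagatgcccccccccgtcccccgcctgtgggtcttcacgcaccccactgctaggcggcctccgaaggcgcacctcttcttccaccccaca
In all, 9 motifs were searched on both strands, the others being TGACTNNGC, which is a narrower form of TGACNNNGC, then TGANTCA for AP-1, GGGCGG for Sp1, TATAAA and the Nrf1 and Zfp143 elements by name, and the 3 marked above were picked after the counts were seen. CCGGAAG was in 16 of the 43 member promoters (37.2%) and in 15.3% of 14760 promoters of protein-coding genes. TGACNNNGC was in 6 (14.0% of member promoters against 13.9% of all), CCAAT in 14 (32.6% against 37.3%) and GGGCGG in 24 (55.8% against 60.6%). TATAAA was in 4 (9.30% against 7.36%), TGANTCA in 2 (4.65% against 5.06%), the Nrf1 element in 2 (4.65% against 1.82%), TGACTNNGC in 1 (2.33% against 3.73%) and the Zfp143 element in 0 (0.596% of all). These are matches of letters in a window and not binding sites.

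Of the 4 activators, Psme2 was called in 5 comparisons, Psme3 in 3, Psme1 in 1 and Psme4 in none. With the GC and length offsets this order turned: Psme4 was called higher in 4 comparisons, Psme2 and Psme3 in 1 each (Paternal_0.3Cyp and Maternal_10Cyp) and Psme1 in none. Psme2, a subunit of the interferon-inducible cap, had 31.3, 38.1 and 74.96 CPM in Paternal_0.3Cyp, 33.4, 38.8 and 43.4 in Maternal_0.3Cyp and 33.01, 38.3 and 46.8 in Both_0.3Cyp. For Psme2 at dose 10, the values were 31.7, 39.6 and 43.4 CPM in Paternal_10Cyp, 36.6, 41.4 and 49.2 in Maternal_10Cyp and 31.9, 37.6 and 41.2 in Both_10Cyp, against 29.2, 33.4 and 38.7 in Ctrl. Above the highest Ctrl library in Psme2 lay 6 of 12 libraries of Paternal_0.3Cyp, 6 of 12 libraries of Maternal_0.3Cyp, 6 of 12 libraries of Both_0.3Cyp, 5 of 10 libraries of Paternal_10Cyp, 6 of 8 libraries of Maternal_10Cyp and 4 of 10 of Both_10Cyp. Its log2 fold changes were 0.28 ± 0.07 (adjusted p = 0.00528) in Paternal_0.3Cyp, 0.21 ± 0.07 (adjusted p = 0.0311) in Maternal_0.3Cyp, 0.20 ± 0.07 (adjusted p = 0.0439) in Both_0.3Cyp, 0.21 ± 0.08 (adjusted p = 0.0442) in Paternal_10Cyp, 0.31 ± 0.08 (adjusted p = 0.00241) in Maternal_10Cyp and 0.15 ± 0.08 (adjusted p = 0.178) in Both_10Cyp. A near copy, Psme2b, is annotated and was not analysed here, so the assignment of reads to Psme2 is uncertain. Psme1, its partner in that cap, had 75.5, 81.8 and 145 CPM in Paternal_0.3Cyp, 78.7, 88.4 and 96.6 in Maternal_0.3Cyp and 79.9, 89.1 and 99.2 in Both_0.3Cyp. In the dose 10 groups Psme1 had 74.98, 86.5 and 104 CPM in Paternal_10Cyp, 80.97, 91.1 and 108 in Maternal_10Cyp and 77.95, 85.9 and 90.6 in Both_10Cyp, against 75.2, 82.6 and 91.6 in Ctrl. Psme1 ranges overlapped in every comparison, with log2 fold changes of 0.11 ± 0.06 in Paternal_0.3Cyp, 0.10 ± 0.06 in Maternal_0.3Cyp, 0.09 ± 0.06 in Both_0.3Cyp, 0.09 ± 0.06 in Paternal_10Cyp, 0.16 ± 0.06 in Maternal_10Cyp and 0.05 ± 0.06 in Both_10Cyp. Its single call, in Maternal_10Cyp (adjusted p = 0.0387), was lost with the GC and length offsets, where the value was -0.04 (adjusted p = 0.335). Psme3, a nuclear activator, had 100.05, 122 and 159 CPM in Paternal_0.3Cyp, 116, 124 and 131 in Maternal_0.3Cyp and 116, 124 and 131 in Both_0.3Cyp. Psme3 at dose 10 had 112, 123 and 131 CPM in Paternal_10Cyp, 121, 128 and 131 in Maternal_10Cyp and 106, 119 and 142 in Both_10Cyp, against 101, 109 and 135 in Ctrl. In Maternal_0.3Cyp and Both_0.3Cyp all 12 libraries lay above the Ctrl mean. Psme3 had log2 fold changes of 0.10 ± 0.04 in Paternal_0.3Cyp, 0.13 ± 0.04 in Maternal_0.3Cyp, 0.13 ± 0.04 in Both_0.3Cyp, 0.11 ± 0.05 in Paternal_10Cyp, 0.18 ± 0.05 in Maternal_10Cyp and 0.10 ± 0.05 in Both_10Cyp, called in Maternal_0.3Cyp, Both_0.3Cyp and Maternal_10Cyp. Psme4, the large nuclear activator of the core, had 67.5, 88.3 and 119.9 CPM in Paternal_0.3Cyp, 78.5, 85.9 and 98.9 in Maternal_0.3Cyp and 72.5, 86.96 and 102 in Both_0.3Cyp. Dose 10 gave Psme4 73.1, 90.9 and 107 CPM in Paternal_10Cyp, 74.9, 90.6 and 97.3 in Maternal_10Cyp and 70.99, 86.3 and 106 in Both_10Cyp, against 66.4, 78.8 and 112 in Ctrl. Its groups overlapped and its log2 fold changes were 0.09 ± 0.07 in Paternal_0.3Cyp, 0.08 ± 0.07 in Maternal_0.3Cyp, 0.11 ± 0.07 in Both_0.3Cyp, 0.15 ± 0.07 in Paternal_10Cyp, 0.11 ± 0.08 in Maternal_10Cyp and 0.07 ± 0.07 in Both_10Cyp. With the offsets Psme4 had 0.19 in Paternal_0.3Cyp (adjusted p = 0.028), 0.20 in Both_0.3Cyp (adjusted p = 0.0202), 0.23 in Paternal_10Cyp (adjusted p = 0.0204) and 0.25 in Maternal_10Cyp (adjusted p = 0.00493), and was not called in Maternal_0.3Cyp (0.15, adjusted p = 0.0708) or Both_10Cyp (0.14, adjusted p = 0.162). Psmf1, an inhibitor of the 20S core, had 49.4, 55.8 and 58.8 CPM in Paternal_0.3Cyp, 49.7, 54.1 and 59.8 in Maternal_0.3Cyp and 51.2, 54.3 and 61.1 in Both_0.3Cyp. The dose 10 values of Psmf1 were 50.8, 53.1 and 59.9 CPM in Paternal_10Cyp, 52.2, 55.5 and 59.6 in Maternal_10Cyp and 50.8, 54.5 and 58.1 in Both_10Cyp, against 46.01, 54.4 and 58.4 in Ctrl. Psmf1 had narrow, overlapping ranges, with log2 fold changes of 0.03 ± 0.03 in Paternal_0.3Cyp, 0.03 ± 0.03 in Maternal_0.3Cyp, 0.03 ± 0.03 in Both_0.3Cyp, -0.00 ± 0.03 in Paternal_10Cyp, 0.04 ± 0.04 in Maternal_10Cyp and 0.03 ± 0.03 in Both_10Cyp and adjusted p of 0.332 to 0.959.

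Psmc3ip matches the naming rule but is not a subunit: it is a cofactor of meiotic recombination whose exons overlap those of Mlx. Psmc3ip, whose name refers to binding Psmc3, had 10.6, 16.6 and 25.5 CPM in Paternal_0.3Cyp, 15.1, 16.1 and 19.5 in Maternal_0.3Cyp and 13.7, 17.4 and 19.1 in Both_0.3Cyp. For Psmc3ip at dose 10, the values were 14.2, 15.7 and 19.8 CPM in Paternal_10Cyp, 16.4, 18.7 and 21.3 in Maternal_10Cyp and 13.8, 15.8 and 19.2 in Both_10Cyp, against 11.6, 13.7 and 17.04 in Ctrl. Above the highest Ctrl library lay 6 of 12 libraries of Paternal_0.3Cyp, 5 of 12 libraries of Maternal_0.3Cyp, 7 of 12 libraries of Both_0.3Cyp, 4 of 10 libraries of Paternal_10Cyp, 5 of 8 libraries of Maternal_10Cyp and 2 of 10 of Both_10Cyp. Its log2 fold changes were 0.26 ± 0.08 (adjusted p = 0.0138) in Paternal_0.3Cyp, 0.27 ± 0.08 (adjusted p = 0.0141) in Maternal_0.3Cyp, 0.26 ± 0.08 (adjusted p = 0.0177) in Both_0.3Cyp, 0.21 ± 0.08 (adjusted p = 0.0553) in Paternal_10Cyp, 0.37 ± 0.09 (adjusted p = 0.000883) in Maternal_10Cyp and 0.18 ± 0.08 (adjusted p = 0.146) in Both_10Cyp. Exons of 14 members overlap those of another annotated gene, for 6 of them a gene of the table (Psmb7, Psmb9, Psmc3, Psmc3ip, Psmd13 and Psme1), and their reads cannot be told apart from those of the partner without strand.

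**Figure D3:**
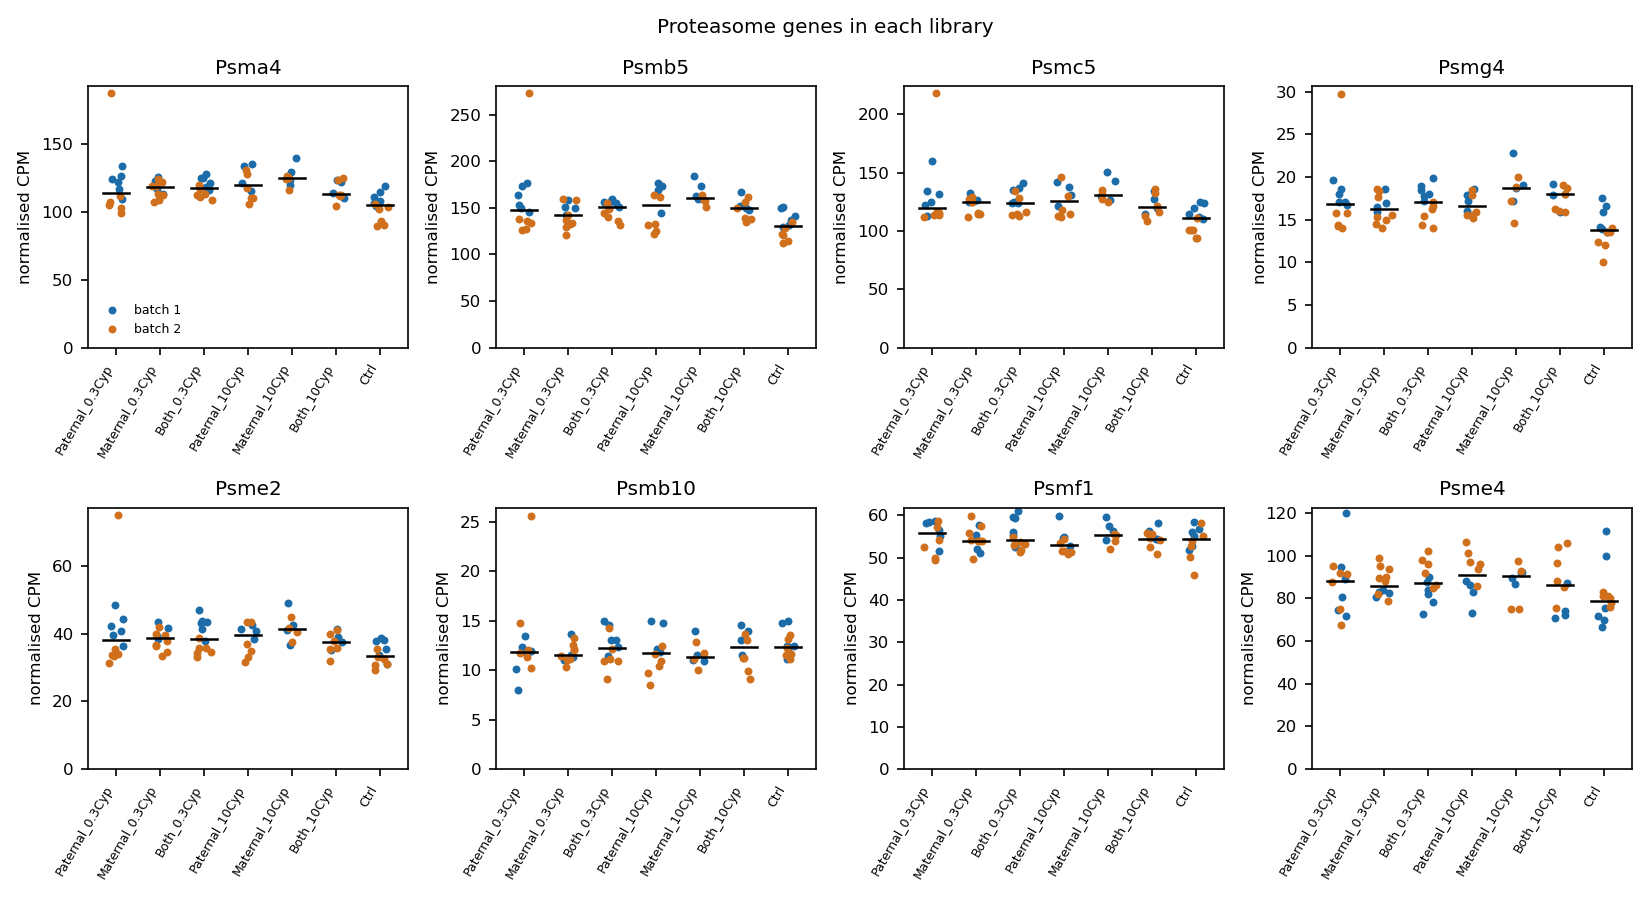
Normalised CPM of 8 proteasome genes in each library (points, coloured by batch) with group medians (lines), exposed groups left of Ctrl. In Psma4, Psmb5, Psmc5, Psmg4 and Psme2 the exposed medians lie above the Ctrl median, with overlapping libraries and 1 high library of Paternal_0.3Cyp; in Psmb10 and Psmf1 the medians lie close together.

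Batches differed in proteasome level, and the values against Ctrl were taken within each. In a fit with a mean for each group and batch, the member median in batch 1 was 0.09 in Paternal_0.3Cyp, 0.08 in Maternal_0.3Cyp, 0.12 in Both_0.3Cyp, 0.17 in Paternal_10Cyp, 0.17 in Maternal_10Cyp and 0.04 in Both_10Cyp. Within batch 1 edgeR called 0 members in any group, with 4, 0, 6, 13, 20 and 0 at an unadjusted p under 0.05 in that order. In batch 2 the medians were 0.28, 0.20, 0.19, 0.22, 0.32 and 0.19 in the same order, with 32, 23, 8, 20, 33 and 17 members called higher and none lower, where 11.6%, 11.5%, 6.52%, 9.99%, 18% and 10.9% of all genes were called higher. In batch 1 these shares were 0.00697%, 0%, 0%, 0%, 0.0907% and 0%. The batch 2 value of Paternal_0.3Cyp includes replicate 8, a male of batch 2 that stood apart, and without that library its median was 0.08 with 0 members called by edgeR and 9 at an unadjusted p under 0.05, beside 0.014% of all genes called higher. The difference between batches was itself tested: edgeR called 0 members in the joint test of batch by exposure, where 0% of all genes were called, with 2 members at an unadjusted p under 0.05 and 0 called by DESeq2 and by limma voom. Ctrl libraries of batch 2 were low: a median of 5.5 of the 47 members lay above the overall Ctrl mean there, against 38 in Ctrl libraries of batch 1. In exposed libraries of batch 2 that median was 28.5 in Paternal_0.3Cyp, 41.5 in Maternal_0.3Cyp, 39 in Both_0.3Cyp, 35 in Paternal_10Cyp, 43 in Maternal_10Cyp and 42 in Both_10Cyp. The sum of the 31 core and cap genes was 3721 to 6953 CPM in Paternal_0.3Cyp, 4023 to 4715 in Maternal_0.3Cyp, 4115 to 4773 in Both_0.3Cyp, 4019 to 5108 in Paternal_10Cyp, 4434 to 5258 in Maternal_10Cyp and 3937 to 4650.4 in Both_10Cyp, against 3623 to 4499.8 in Ctrl, so that all 6 exposed groups overlapped with Ctrl.

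**Figure D4:**
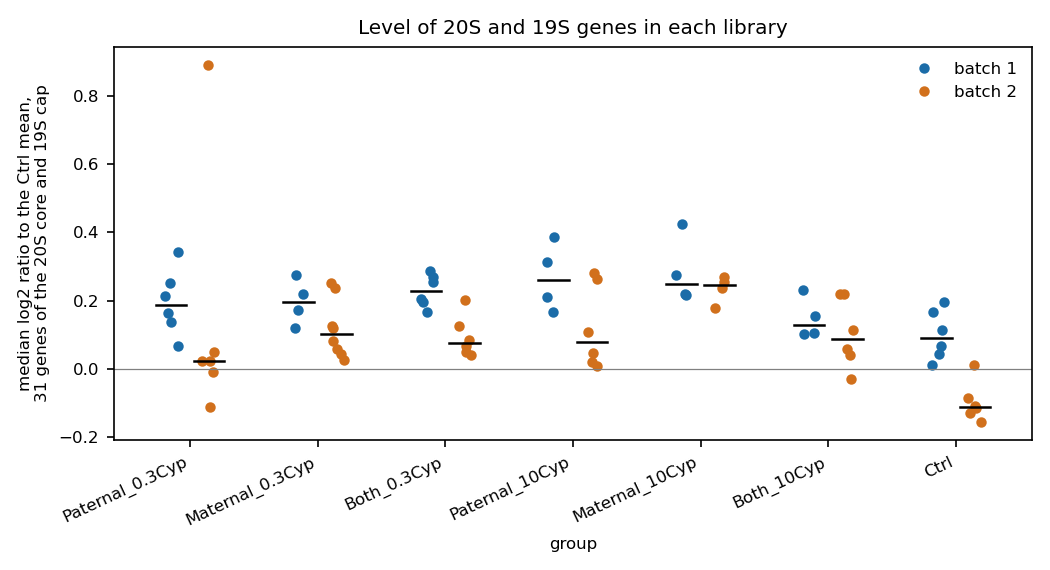
Median log2 ratio to the Ctrl mean over 31 genes of the 20S core and 19S cap in each library (points), by group and batch (colours), with lines at batch medians. Batch 2 of Ctrl has a median of -0.11 and batch 1 of Ctrl 0.09; Paternal_0.3Cyp replicate 8 is at 0.89.

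By sex, member medians in female embryos were 0.12 in Paternal_0.3Cyp, 0.13 in Maternal_0.3Cyp, 0.16 in Both_0.3Cyp, 0.15 in Paternal_10Cyp, 0.23 in Maternal_10Cyp and 0.15 in Both_10Cyp. In male embryos they were 0.27, 0.16, 0.15, 0.22, 0.27 and 0.10 in the same order. In males 31 members were called higher in Paternal_0.3Cyp, where 10.1% of all genes were, and 27 in Maternal_10Cyp, where 7.77% were. In females 4 were called higher in Maternal_10Cyp, beside 4.51% of all genes, and edgeR called 0 in the other groups of either sex, with 4 to 29 at an unadjusted p under 0.05. All genes were called higher there in shares of 0.139% for males of Maternal_0.3Cyp, 0.0697% for males of Paternal_10Cyp, 0.0279% for males of Both_10Cyp and 0% for males of Both_0.3Cyp and for females of the 5 groups other than Maternal_10Cyp. The male values of Paternal_0.3Cyp rest on replicate 8: without it the male median was 0.07 with 0 members called and 6 at an unadjusted p under 0.05 by edgeR, beside 0.167% of all genes called higher, and the female median was 0.12 with 4 members called, beside 4.87%. The joint test of sex by exposure called 0 members with edgeR and 0% of all genes, with 0 members at an unadjusted p under 0.05 and 0 called by DESeq2 and limma voom. Between males and females edgeR called 0 members (beside 0.0907% of all genes), with 1 at an unadjusted p under 0.05, Psme3, and 0 called by DESeq2 and limma voom.

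Dose and parent were compared without Ctrl. At dose 10 against 0.3 edgeR called 0 members for fathers, where 0.0628% of all genes were called, 0 for mothers (0% of all genes) and 0 for both parents (0.00697%). At an unadjusted p under 0.05 there were 1, 5 and 0 members in that order, DESeq2 called 0 in each, and limma voom called 2, 2 and 0. Member medians were -0.01 in Paternal_10Cyp against Paternal_0.3Cyp, 0.08 in Maternal_10Cyp against Maternal_0.3Cyp and -0.03 in Both_10Cyp against Both_0.3Cyp. Without Paternal_0.3Cyp replicate 8, 7 members were called in the paternal dose comparison, with the share of all genes not reported here. Maternal_0.3Cyp against Paternal_0.3Cyp gave 0 calls (0.00697% of all genes) and Maternal_10Cyp against Paternal_10Cyp 0 (0%), with 0 and 2 members at an unadjusted p under 0.05 and 0 called by DESeq2 and limma voom. Both_10Cyp against Maternal_10Cyp gave 0 calls by edgeR (0% of all genes) and 0 by DESeq2, with 10 members at an unadjusted p under 0.05 and a median of -0.11. There limma voom called 26 members, all lower in Both_10Cyp, and the share of all genes it called there is not reported here. Psma3 had the lowest p by edgeR, with a log2 fold change of -0.17 ± 0.07 (edgeR adjusted p = 0.424).

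Fold changes ran with transcript length, in proteasome genes and in genes at large. Proteasome transcripts are short, with a median of 1430 bases for the principal transcript against 3097 bases over all genes tested. In Maternal_10Cyp the 15 members of up to 1200 bases had a median log2 fold change of 0.28, and 1201 genes of that length had 0.23. For 20 members of 1201 to 2000 bases the median was 0.25, beside 0.12 over 2361 genes. For 12 members over 2000 bases it was 0.13, beside -0.06 over 10765 genes. Of all genes of up to 1200 bases, 51.5% were called higher in Maternal_10Cyp and 1.83% lower. Across libraries, short genes of any kind ran with the groups too: their median log2 ratio to the Ctrl mean was 0.12 to 0.36 in Maternal_10Cyp and -0.13 to 0.17 in Ctrl. When the fit had offsets for GC content and transcript length per gene, 11 members were called higher in Paternal_0.3Cyp, where 11.5% of all genes were, 2 in Maternal_0.3Cyp (8.92% of all genes), 8 in Both_0.3Cyp (9.23%), 11 in Paternal_10Cyp (6.22%) and 21 in Maternal_10Cyp (17.2%). In that fit Psmb10 was the 1 member called lower, in Maternal_10Cyp, where 14.9% of all genes were. The shares of all genes called lower were 9.55% in Paternal_0.3Cyp, 10.9% in Maternal_0.3Cyp, 9.14% in Both_0.3Cyp and 4.24% in Paternal_10Cyp. In Both_10Cyp 0 members were called by edgeR, beside 2.42% of all genes called higher. Of the members called in 5 comparisons without the offsets, Psmd13 was called in 5 with them and Psma2, Psmd4 and Psmd8 in 4, while Psma4, Psma6, Psmb2, Psmb3 and Psmd12 were called in 0. The member medians were then 0.06, 0.05, 0.05, 0.06, 0.08 and 0.04 in the order of these groups, ending with Both_10Cyp, and those of all genes were between -0.01 and 0.01. Over 2000 bases the members had a median of 0.13 in Maternal_10Cyp with the offsets. Psmc5 had 0.13 (adjusted p = 0.0113), Psmd7 0.14 (adjusted p = 0.00113) and Psma4 0.04 (adjusted p = 0.2) in that fit. The part of length in these differences was not tested beyond this fit.

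**Figure D5:**
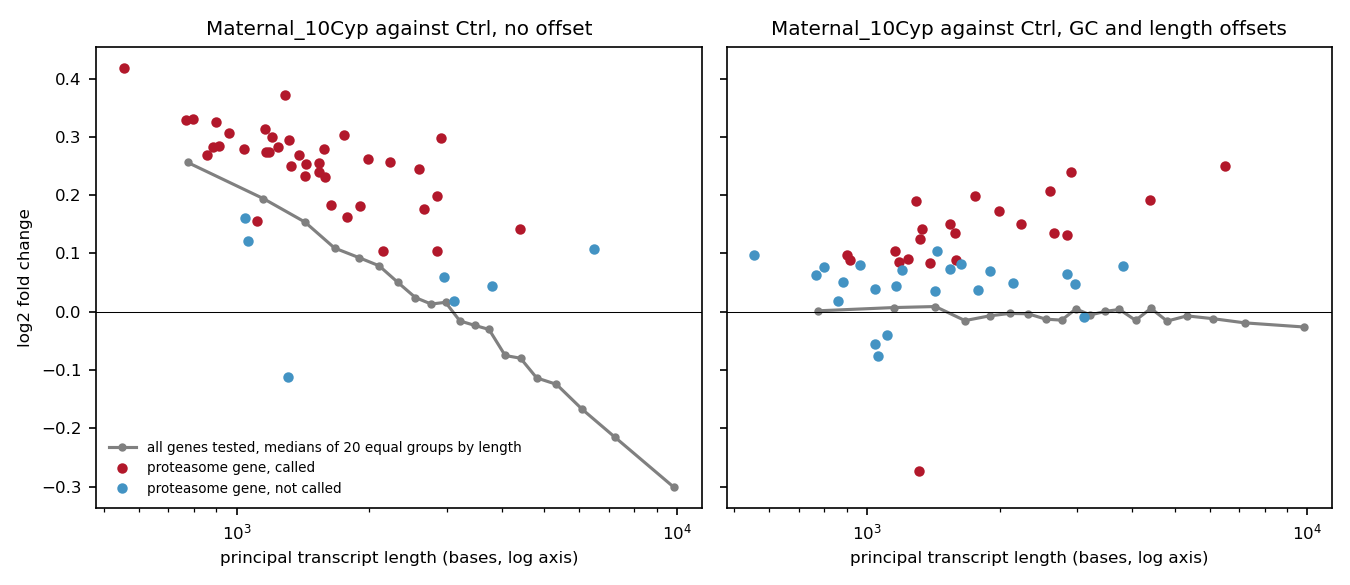
Log2 fold change in Maternal_10Cyp against Ctrl by principal transcript length (log axis), without and with GC and length offsets, for proteasome genes (red called, blue not called) and for all genes (grey, medians of 20 equal groups by length). Psmb8 and Psmb9 lie below the axis and are not drawn; without offsets the grey line falls with length, and with offsets it is near 0 and the members' median is 0.08.

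Other large complexes made of short transcripts are given for scale. In Maternal_10Cyp the median log2 fold change was 0.29 for 78 cytosolic ribosomal protein genes, 0.25 for 78 mitochondrial ribosomal protein genes and 0.29 for 37 nuclear complex I genes, beside 0.25 for the proteasome members. In Both_10Cyp these were 0.20, 0.15 and 0.18, beside 0.13. With the GC and length offsets the Maternal_10Cyp medians were 0.075, 0.095 and 0.041, beside 0.083. Those of Both_10Cyp were then 0.046, 0.051 and 0.032, beside 0.037. These sets were defined after the data had been seen and carry no test.

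Genes around the proteasome were called in both directions. For the lists that follow, the shares of all genes called higher and lower were 15.4% and 12.2% in Paternal_0.3Cyp, 10.9% and 12.8% in Maternal_0.3Cyp, 10.5% and 11.8% in Both_0.3Cyp, 10.7% and 10.8% in Paternal_10Cyp, 20.4% and 20.4% in Maternal_10Cyp and 2.34% and 1.58% in Both_10Cyp. Of 10 other proteasome components, 5 were called higher in Paternal_0.3Cyp, 3 in Maternal_0.3Cyp, 4 in Both_0.3Cyp, 4 in Paternal_10Cyp and 2 in Both_10Cyp, with 0 lower in each, while Maternal_10Cyp had 7 higher and 2 lower. Sem1, the smallest cap subunit, had 0.61 ± 0.13 (adjusted p = 0.000223) in Maternal_10Cyp and was called in all 6. Txnl1, a thioredoxin of the cap, had 0.21 ± 0.04 there and was called in all 6, and the ubiquitin receptor Adrm1 had 0.23 ± 0.05. Of 12 regulators of proteasome genes, 3 were called higher and 2 lower in Paternal_0.3Cyp, 3 and 1 in Maternal_0.3Cyp, 3 and 1 in Both_0.3Cyp, 2 and 2 in Paternal_10Cyp, 4 and 1 in Maternal_10Cyp and 1 and 0 in Both_10Cyp. Nfe2l1, the activator of subunit genes, was called lower in 4 comparisons, with -0.15 ± 0.04 (adjusted p = 0.000775) in Maternal_10Cyp. Nfyb, a subunit of the CCAAT-binding factor, was called higher in all 6 (0.31 ± 0.06 in Maternal_10Cyp), and Foxo4 in 3 (0.31 ± 0.08).

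Of 7 ubiquitin genes, 4 were called higher and 0 lower in Paternal_0.3Cyp, 2 and 0 in Maternal_0.3Cyp, 2 and 1 in Both_0.3Cyp, 2 and 2 in Paternal_10Cyp, 4 and 3 in Maternal_10Cyp and 1 and 0 in Both_10Cyp. Rps27a, which encodes ubiquitin fused to a ribosomal protein, was called higher in Maternal_10Cyp (0.42 ± 0.10). Of 13 shuttle and unfoldase genes, 0 to 2 were called higher and 0 or 1 lower, and Ubqln2, a ubiquitin shuttle, had the lowest joint p (-0.25 ± 0.07 in Maternal_10Cyp), before Rad23b (0.06) and Nsfl1c (0.12). Of 14 folding chaperone genes, 8 were called higher in Paternal_0.3Cyp, 5 in Maternal_0.3Cyp, 4 in Both_0.3Cyp, 12 in Paternal_10Cyp, 13 in Maternal_10Cyp and 0 in Both_10Cyp, with 0 lower, led in the joint test by Pfdn2, Pfdn1 and Pfdn6 with 0.31, 0.36 and 0.33 in Maternal_10Cyp. Of 9 genes of the COP9 signalosome, a relative of the cap, 6, 5, 3, 7, 8 and 0 were called higher in the same order and 0 lower, with Cops3 (0.23), Cops2 (0.09) and Cops7b (0.20 in Maternal_10Cyp) of lowest joint p. Among 16 interferon response genes 0 were called higher, and 0, 1, 1, 2, 6 and 3 were called lower in the same order. Isg15 (-1.11) and Tap2 (-0.83 in Maternal_10Cyp) were among the 3 genes of lowest joint p. With the GC and length offsets, the median log2 fold change in Maternal_10Cyp moved from 0.20 to 0.09 for other proteasome components. For regulators it moved from 0.04 to 0.09, for ubiquitin genes from 0.15 to 0.007 and for shuttle and unfoldase genes from 0.03 to 0.02. For chaperones it moved from 0.17 to 0.07, for COP9 genes from 0.15 to 0.06 and for interferon response genes from -0.53 to -0.60.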

How the data were processed

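Per the submitters' processing notes, reads were trimmed with Trim Galore 0.5.0 and quantified with Salmon 1.10.1 on mm10. The deposited table holds estimated counts per gene, which the authors supplied as whole numbers. The annotation release, the rounding, the strandedness and the filter are not given in the sources used here. IDs were matched to GENCODE M21.

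Genes were filtered with filterByExpr (14339 of 14823 kept), scaled by TMM and tested with edgeR 4.0.16 (R 4.3.3, robust quasi-likelihood) over the 76 libraries, the model holding group, batch and sex. Tests were 2-sided, with calls at an adjusted p (Benjamini-Hochberg) under 0.05. CPM are on TMM-scaled totals, and log2 ratios to the Ctrl mean used a pseudocount of 0.5 CPM. The GC and length offsets came from the longest protein-coding transcript of each gene, or its longest transcript where it had none. Length classes and CPM per kb used the principal transcript, whose length can differ. Other settings were DESeq2 1.42.0, limma voom 3.58.1, 2 surrogate variables (sva 3.50.0) and those of the closing section. Wherever limma voom is named, it was run with quality weights, so that each library had its own weight. The edgeR step alone was tested, on simulated counts with known fold changes and no batch, litter or length effects. Its pass criteria were set after an earlier criterion, on the share of changed genes called, had been missed.

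The members, gene lists and tests were chosen with earlier results of these data known, and the ribosomal and complex I sets and the length classes were added after the files had been read. Promoters came from RefSeq (GRCm38.p6). Lowest, median and highest values are given for the member of lowest joint p in each role class, for each immunoproteasome subunit, activator and inhibitor, and for up to 3 called members of lowest p per direction in each comparison with Ctrl. From each other pathway list, up to 3 genes of lowest joint p are named, except a few that are not reported here. Other members appear by range or count; genes beside these were named after their values were seen.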

Additional observations from a re-analysis of the deposited data

Results flagged for a closer look

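Groups of 8 or 10 libraries were screened for single libraries far from the rest in the 17 members described in full. A library was singled out where its gap to the nearest other was large against the range of its group (Dixon's 95% limits). Of 51 such sets, 7 held one, and chance singles out about 1 in 20.

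In Maternal_10Cyp, replicate 1 had 159 CPM of Psma1, the next library having 142, and 156 CPM of Psmd7, the next having 143. Replicate 6 of that group had 121 CPM of Psme3, below the next library at 127, and 0.651 CPM of Psmb9, above the next at 0.336. Replicate 3 had 0.891 CPM of Psmb8, the next having 0.560. In Both_10Cyp, replicate 10 had 91.0 CPM of Psmc6, below the next at 103. In Paternal_10Cyp, replicate 2 had 59.9 CPM of Psmf1, above the next at 55.0. The values of Psmb8 and Psmb9 rest on few counts. Groups of 12 were not screened in this way, which includes Paternal_0.3Cyp with its replicate 8.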

How the results depend on the processing

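Counts of proteasome genes called are given in the order Paternal_0.3Cyp, Maternal_0.3Cyp, Both_0.3Cyp, Paternal_10Cyp, Maternal_10Cyp and Both_10Cyp, each against Ctrl, where the edgeR fit had 32, 24, 24, 29, 38 and 1, and the joint test 28. Of 15 settings beside leaving out libraries, DESeq2, DESeq2 size factors, no filter on low counts, thinned counts and leaving out libraries high in diencephalon markers kept all counts within 1.5 times. Without a batch term the count was 7 in Maternal_0.3Cyp, 14 in Both_0.3Cyp, 16 in Paternal_10Cyp and 11 in the joint test. Batch 1 alone gave 0, 0, 0, 9, 11 and 0, and 0 jointly. Batch 2 alone gave 11 in Paternal_0.3Cyp, 8 in Maternal_0.3Cyp, 3 in Both_0.3Cyp, 7 in Paternal_10Cyp, 5 in Both_10Cyp and 1 jointly. The globin covariate gave 1 in Paternal_0.3Cyp, 0 in Maternal_0.3Cyp, 0 in Both_0.3Cyp and 1 jointly. GC and length offsets gave 11, 2, 8, 11, 22 and 0, and 7 jointly. With 2 surrogate variables there were 0 in Maternal_0.3Cyp, 1 in Both_0.3Cyp, 18 in Paternal_10Cyp and 1 jointly. Without the libraries high in embryonic globin, Both_10Cyp had 0 and Both_10Cyp against Maternal_10Cyp had 1, lower. With limma voom there were 17 in Paternal_0.3Cyp, 38 in Both_0.3Cyp and 11 in Both_10Cyp, 2 in each of the paternal and maternal dose comparisons and 26 in Both_10Cyp against Maternal_10Cyp. Fits of only the groups compared gave 0 in Paternal_0.3Cyp and 12 in Both_10Cyp. Apart from the offsets, the shares of all genes called under these settings are not reported here. The cause of these changes was not tested.

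Leaving out each library in turn, with shares of all genes not reported here, gave 14 to 36, 13 to 27, 14 to 29, 17 to 34, 34 to 39 and 1 to 8, and 13 to 36 jointly. It gave 0 to 7 in the paternal dose comparison, the 7 without Paternal_0.3Cyp replicate 8, and 0 to 0 in the other comparisons where it was run. For the single members described, 1275 values kept direction and side of the threshold, or were called in neither fit, 199 lost the call, 48 gained it and 1 changed direction: Psme1 in Maternal_10Cyp, at -0.039 with the offsets. A change of sign between values both uncalled was counted as no change. Leaving Paternal_0.3Cyp replicate 8 out of the fits within batch and sex was chosen after seeing the data, and gave 0 in place of 32 in batch 2, 0 in place of 31 in males, 4 in place of 0 in females and 0 in both fits in batch 1.

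Replicate numbers were not taken to pair libraries in the main fit. Of 210 same-numbered pairs across groups, 69 had a correlation of deviations over 0.1 (median 0.03, against -0.01 for different numbers). Batch was not removed from these deviations, so they cannot tell pairing from batch. With the replicate block the counts were 33, 22, 30, 20, 32 and 1, and 21 jointly. Depth limits Psmb8, Psmb9 and Psma8, with medians of 11, 5 and 3 counts in a library.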
